A study of Homo sapiens with 4 samples.

Results

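Simple repeats are short sequence units copied head to tail, and low complexity stretches are runs with a strongly skewed base make-up such as A-rich or GA-rich RNA. The members here were the deposited regions whose repeat entry named nothing but simple repeats or low complexity stretches. They numbered 60848 of 3814162 regions in the J2 table, or 1.60%, and 38281 of 2310971 regions in the Input table, or 1.66%. The cells were NCI-H1944, a human lung adenocarcinoma line labelled wild type. They were exposed for 48 h to BAY-1217389 at 100 nM or to its solvent DMSO, and were grown for 24 h after washout. BAY-1217389 blocks MPS1, the kinase of the spindle checkpoint encoded by TTK. Total RNA (Input) was taken from 10% of the lysate, and the rest went through a pull-down with J2, which is a monoclonal antibody to double-stranded RNA (dsRNA). The groups were MPS1i J2, DMSO J2, MPS1i Input and DMSO Input, with 1 library each of 1 cell line. No difference between them could be checked in a replicate, and no p-value is given. Intervals are 95% counting intervals, which cover counting error only and treat PCR reads as separate molecules.

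J2 recognises the shape of long RNA duplexes rather than their sequence. A transcribed simple repeat can give such a duplex in more than one way: a unit that is its own reverse complement, such as AU repeated, can fold back on itself, and a repeat whose partner strand is also transcribed can pair with that partner. Sensors of the innate immune system that bind dsRNA switch on interferon and its target genes. Several results below fall at genes of that response.

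All members lay on the plus strand of the genome. How the authors assigned repeats to strands was not given in the sources used here. If the entry names a simple repeat in the orientation of the reference, the unit as named is the unit of the RNA read there, and units are described on that reading. Repeats in minus-strand transcripts were seen only where the second annotation of a region, taken at its centre, named one. The members were short, with a median length of 128 bp in the J2 table and 137 bp in the Input table, and a longest of 18604 bp in J2 and 51105 bp in Input. The repeat covered the centre of the region in only 28.2% of J2 members and 27.2% of Input members. A count is thus the count of a transcribed region that holds the repeat, not of reads within the repeat. Of the J2 members 50.05% were intronic, 39.0% intergenic and 3.65% at promoters, and of the Input members 51.4%, 33.5% and 5.05%. In 48.8% of J2 members and 48.0% of Input members neither library had a read.

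Runs of the named unit were looked for in the members with at least 50 reads, in GENCODE 29 transcripts and RefSeq promoter windows (GRCh38.p14, plus strand). For 16 of 1116 such regions a run of at least 12 bases was found. Sequence was at hand only where an exon or promoter window overlapped the region, so this is not the share of regions that hold a run. The most read example of each class of base composition is shown, from units without G or C to units made only of G and C, with the repeated unit in capitals and flanking bases in lower case.
(AT)n, MDM2 transcript: tgtacattATATATATATATATactttttt
(GTT)n, MDM2 transcript: ttttGTTGTTGTTGTTGTTtgttcgt
(GT)n, ACKR3 transcript: agggggGTGTGTGTGTGTGTGTGTctgcct
(GAGGC)n, YY1 transcript: cGAGGCGAGGCGAGGCggggagc
(GGC)n, PAFAH1B1 promoter: ctggGGCGGCGGCGGCGGCGGCGGCGgcgg

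The AT run lies at chr12:68847190-68847219 and the GTT run at chr12:68849398-68849423, both in MDM2, which encodes the ligase that turns over p53. The region holding the AT run had 53 J2 reads in MPS1i cells and 36 in DMSO cells, a log2 ratio of 1.11 [0.47, 1.76] after division by library totals. The region holding the GTT run had 361 J2 reads in MPS1i cells and 212 in DMSO cells, a log2 ratio of 1.32 [1.07, 1.57]. Both were thus higher in MPS1i J2 than in DMSO J2, beyond counting error. In Input the region overlapping that of the GTT run had 113 reads in MPS1i cells and 47 in DMSO cells. The Input region at the AT run had 12 and 14. The GT run at chr2:236569681-236569710 lies in ACKR3, a scavenging chemokine receptor, whose region had 103 J2 reads in MPS1i cells and 86 in DMSO cells (0.81 [0.38, 1.24]). The ACKR3 region in Input had 97 reads in MPS1i cells and 62 in DMSO cells (1.04 [0.57, 1.53]). The GAGGC run at chr14:100238985-100239007 lies in YY1, a transcription factor, whose region had 163 J2 reads in MPS1i cells and 246 in DMSO cells (-0.05 [-0.34, 0.25]). The GGC run at chr17:2593587-2593616 lies at the promoter of PAFAH1B1, a regulator of dynein, and goes on for 5 bases past the capitals. Its Input region had 72 reads in MPS1i cells and 82 in DMSO cells (0.21 [-0.27, 0.68]). The last pair of regions did not differ between treatments beyond counting error.

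As a class, simple repeat and low complexity regions took nearly the same share of the J2 library with and without the inhibitor. Members held 183361 of 6697479 reads in MPS1i J2 (2.74%) and 267383 of 9793355 in DMSO J2 (2.73%), a log2 ratio of 0.00 [-0.00, 0.01]. In Input they held 105055 of 4844956 reads in MPS1i cells (2.17%) and 136785 of 6381610 in DMSO cells (2.14%), a log2 ratio of 0.02 [0.01, 0.03]. These ratios are relative to the library totals. Scaling by trimmed mean of M-values (TMM) shifts every J2 ratio by 0.02 and every Input ratio by -0.45, so an Input ratio below is a difference from the sum of all Input regions. The sum hid large shifts of single regions. The most read member, in intron 7 of AKR1C1, held 7.10% of all member reads in MPS1i J2 and 3.802% in DMSO J2, and without it the J2 ratio was -0.05. The pre-ribosomal region moved the other way, and without it the J2 ratio was 0.04.

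By unit length, the log2 ratio of MPS1i over DMSO in J2 ran from -0.16 [-0.19, -0.14] for tetranucleotides to 0.17 [0.13, 0.21] for trinucleotides. Mononucleotides were at -0.07, dinucleotides at -0.11 and longer units at -0.02. Trinucleotide repeats were higher in Input too, at 0.17 [0.12, 0.22], and tetranucleotides were lower there, at -0.15 [-0.19, -0.12]. The tetranucleotide Input value rested in part on 1 region in LARP4, and was -0.06 without it. That region is annotated as promoter, with the small nucleolar RNA SNORD133 as its nearest gene. None of these ratios came near 2-fold. The 4 other scalings tried shift every J2 ratio by a constant from -0.05 to 0.04. Of these J2 signs they could thus turn only that of longer units. The trinucleotide J2 ratio was -0.11 when each region counted as at most 1 read. The tetranucleotide J2 ratio was 0.16 in regions of 200 bp or less. Over all alternatives the Input ratio ran from -0.28 to 0.36 for trinucleotides and from -0.60 to 0.14 for tetranucleotides. Regions naming units of several lengths stood at 0.39 in J2 and -0.10 in Input, but the J2 value was -0.07 without the AKR1C1 region.

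**Figure D1:**
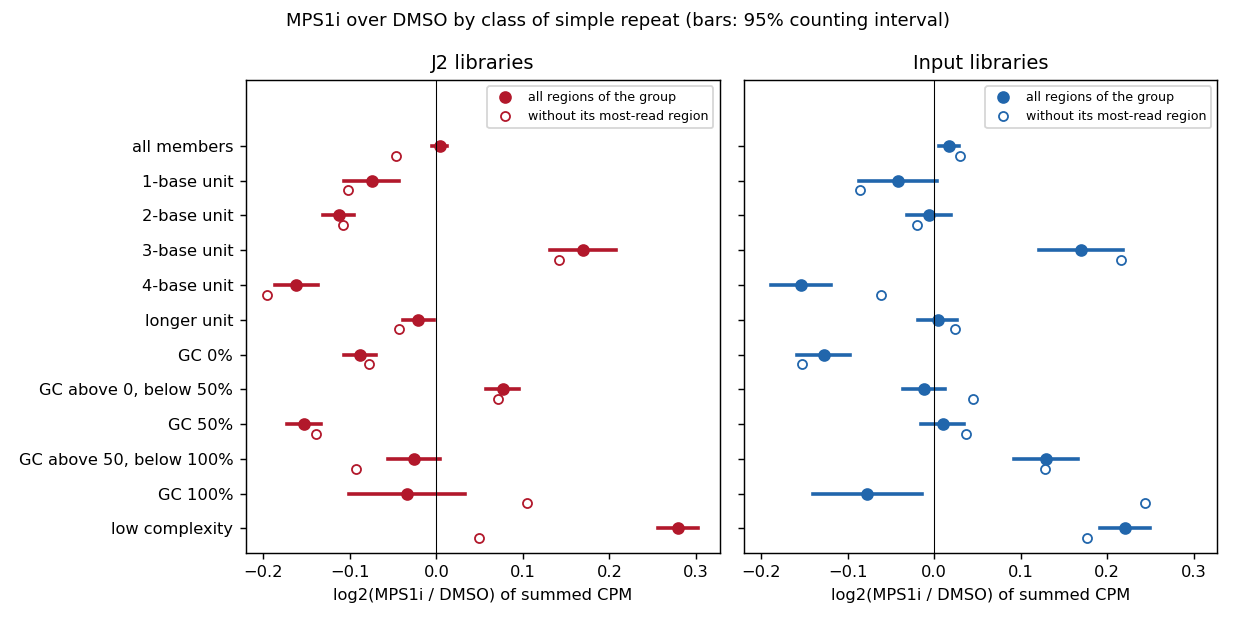
Log2 ratio of summed CPM (counts scaled to the library total), MPS1i over DMSO, for each class of repeat in the J2 libraries (left) and the Input libraries (right). Filled points with bars are all regions of the class with the 95% counting interval, and open points leave out its most read region. Trinucleotides lie above 0 and tetranucleotides below 0 in both panels, and the J2 value for low complexity falls to 0.05 without 1 region.

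By base composition, units without G or C stood at -0.09 [-0.11, -0.07] in J2 and -0.13 [-0.16, -0.10] in Input. Units between 0 and 50% GC stood at 0.08 [0.06, 0.10] in J2 and -0.01 in Input. Units of exactly 50% GC were the lowest class in J2, at -0.15 [-0.17, -0.13], and at 0.01 in Input. Units between 50 and 100% GC stood at -0.03 in J2 and 0.13 [0.09, 0.17] in Input, and units of pure G and C at -0.03 in J2 and -0.08 in Input. The order of the classes did not follow GC content in either table, and the pure GC value turned to 0.10 in J2 and 0.24 in Input without 1 region antisense to ACTG1.

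Low complexity regions as a class stood at 0.28 in J2, and regions that name both a low complexity stretch and a simple repeat at -0.59, or 0.34 without the pre-ribosomal region. GA-rich regions had 14692 reads in MPS1i J2 and 14532 in DMSO J2, a log2 ratio of 0.56 [0.53, 0.60], and 6901 reads in MPS1i Input and 7111 in DMSO Input, a log2 ratio of 0.35 [0.31, 0.40]. One region made most of this difference. It lies at chr3:122565553-122565859 inside DTX3L, on its strand and annotated as promoter, next to the divergent gene PARP9; DTX3L and PARP9 encode an interferon-induced ubiquitin ligase complex. It had 5117 reads in MPS1i J2 and 1557 in DMSO J2 (2.26 [2.18, 2.35]), and its Input counterpart had 1685 reads in MPS1i cells and 460 in DMSO cells. Without its most read region, the GA-rich class stood at 0.11 in J2 and 0.05 in Input. A-rich regions stood at 0.00 [-0.03, 0.04] in J2 and 0.12 in Input, and the Input value was -0.03 without a region in intron 9 of CCT5, a chaperonin subunit. G-rich regions stood at 0.02 in J2 and 0.16 in Input.

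The fixed units are set here beside their reverse complements, called partners. Since all members lie on the plus strand, a unit and its partner are different regions, not both strands of the same repeat. TG repeats, the reverse complement of CA, had 8203 reads in MPS1i J2 and 15057 in DMSO J2, a log2 ratio of -0.33 [-0.37, -0.29]. CA repeats had 11553 reads in MPS1i J2 and 16991 in DMSO J2, a log2 ratio of -0.01 [-0.04, 0.03]. The Input ratios were -0.18 for TG and 0.08 for CA, so TG was the lower of the pair in both tables. A repeats stood at -0.19 [-0.25, -0.14] in J2 and -0.42 [-0.52, -0.32] in Input, and T repeats at 0.01 in J2 and 0.04 in Input. GAA repeats, the unit expanded in Friedreich ataxia, stood at 0.54 [0.27, 0.80] in J2 and 0.99 [0.61, 1.37] in Input, and their partner TTC at -0.11 in J2 and -0.55 in Input. CAG repeats, the unit expanded in Huntington disease, had 331 reads in MPS1i J2 and 311 in DMSO J2 (0.64 [0.41, 0.87]) and stood at 0.75 [0.56, 0.93] in Input. Their partner CTG stood at -0.03 in J2 and 0.44 [0.15, 0.74] in Input. CGG repeats, the unit of fragile X syndrome, stood at 0.20 in J2 and 0.34 in Input, and CCG at 0.10 and 0.27 in the same tables.

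Telomeric repeats were close to the limit of detection. The telomeric unit TTAGGG had 4 reads in MPS1i J2 and 16 in DMSO J2, and 5 reads in MPS1i Input and 24 in DMSO Input. The complementary unit CCCTAA had 0 reads in MPS1i J2 and 1 in DMSO J2, and 0 in MPS1i Input and 4 in DMSO Input. Self-complementary units stood at -0.01 [-0.05, 0.02] in J2 and -0.20 [-0.26, -0.15] in Input; the Input value was -0.05 without the ACTG1 region. The pericentromeric units GAATG and CATTC are mostly classed as satellite and were not members. Together with their low counts (9 and 2 reads in MPS1i J2, 15 and 4 in DMSO J2), they add nothing to the sums above.

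Members also differed by their place relative to genes. Members sense to a GENCODE gene had 122222 reads in MPS1i J2 and 192388 in DMSO J2, a log2 ratio of -0.11 [-0.12, -0.10]. Members antisense to a gene had 24657 reads in MPS1i J2 and 29595 in DMSO J2, a log2 ratio of 0.28 [0.26, 0.31]. Members outside genes stood at 0.23 [0.21, 0.25], and at 0.52 without the pre-ribosomal region. In Input the values were -0.10 [-0.11, -0.08] for sense, 0.05 [0.03, 0.08] for antisense and 0.47 [0.44, 0.50] for outside. In plus-strand regions without any named repeat, sense, antisense and outside regions stood at -0.18, 0.88 and 0.73 in J2 and at -0.20, 0.58 and 0.74 in Input. The members' antisense value was thus the smaller in both tables, with intervals that do not overlap. In J2 the order of antisense and outside members changed with the pre-ribosomal region left out.

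**Figure D2:**
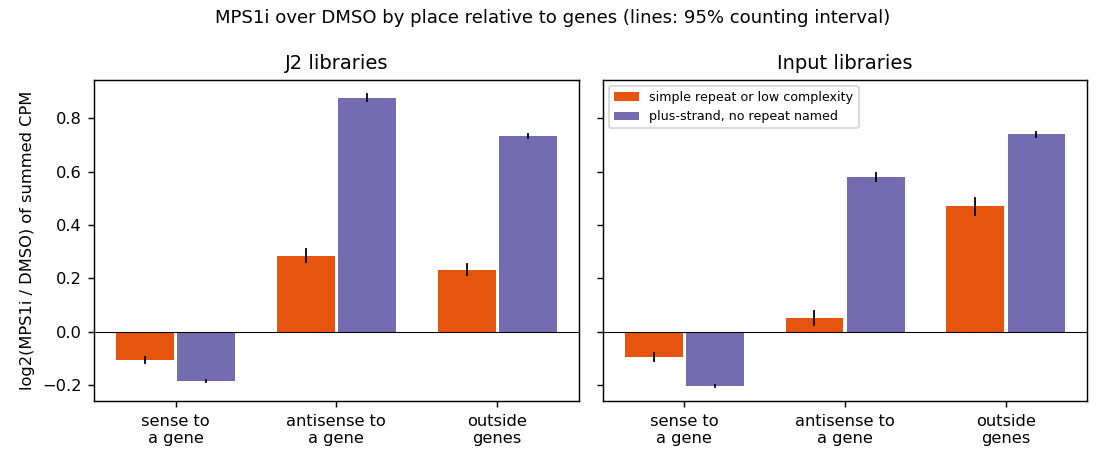
Log2 ratio of summed CPM, MPS1i over DMSO, by place relative to GENCODE 29 genes, for simple repeat and low complexity regions and for plus-strand regions with no repeat named, in J2 (left) and Input (right). Bars are the ratios and lines the 95% counting intervals. Antisense members stand at 0.28 in J2, against 0.88 for antisense regions without a repeat.

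Antisense reads made up more of the members than of other regions. They were 13.5% of member reads in MPS1i J2 and 11.1% in DMSO J2, against 6.85% and 3.77% of the reads in plus-strand regions without a repeat. In MPS1i Input they were 21.7% and in DMSO Input 21.2% of member reads, against 4.29% and 2.67%. The last 2 shares are lowered by 1 sense region, with 42.1% of the MPS1i and 46.3% of the DMSO Input reads in regions without a repeat. Without it, 79398 of 1071025 such reads in MPS1i Input and 70006 of 1409222 in DMSO Input were antisense. Single regions opposite highly expressed genes were among the most read in Input. A (CCTCTT)n region opposite HDGF, a growth factor gene, had 1795 reads in MPS1i Input and 2846 in DMSO Input. A (GC)n region opposite ACTG1 had 1017 reads in MPS1i Input and 2100 in DMSO Input, and an A-rich region opposite ACTB had 1096 in MPS1i Input and 1716 in DMSO Input. These are the cytoplasmic actin genes. Whether such reads are antisense RNA or reads of the gene assigned to the wrong strand was not tested.

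A duplex can form between transcripts from the opposite strands of 1 place, and repeats can also pair with RNA from elsewhere. Only the first was counted. Among J2 members with at least 10 reads, 76 of 5201 (1.46%, Wilson interval 1.17 to 1.83) had a minus-strand partner region overlapping by at least 50% of each, also with at least 10 reads. In plus-strand J2 regions without a repeat the share was 0.786% (0.713 to 0.867). Outside genes it was 4.71% (3.46 to 6.37) for members and 2.36% (2.03 to 2.74) for regions without a repeat. In Input the shares were 1.02% for members and 0.719% for regions without a repeat, with overlapping intervals. The J2 share was thus higher for members, with intervals that do not overlap, though nearly all members had no such partner. The Wilson intervals treat regions of 1 library as independent draws. Members were also longer, with a median over all J2 members of 128 bp, against 118 bp for plus-strand J2 regions without a repeat. The part of length in the difference was not tested.

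The 4942 single repeat names of either table were also summed one by one and called where MPS1i and DMSO differed at least 2-fold, with at least 50 reads in the pair and an interval that excluded no change. In J2, 448 names reached 50 reads. Of these 26 were called higher in MPS1i cells (5.80%), against 9.63% of all repeat names of any class, and 68 were called lower (15.2%), against 6.35%. Their median log2 ratio was -0.12, against 0.09 for all repeat names. In Input, 27 of 314 names were called higher (8.60%; 12.4% of all repeat names) and 19 lower (6.05%; 3.55% of all repeat names). In J2 the share of simple repeat names called lower was thus above, and the share called higher below, that of repeat names at large, and whether these shares differ was not tested. With every library thinned to the depth of the shallowest, 21 J2 names were higher and 34 lower of 319, against 9.51% higher and 4.09% lower of all repeat names. In Input, TMM scaling turned the split to 11 higher and 58 lower, and upper-quartile scaling to 36 higher and 11 lower. The upper quartiles were only 2 reads in MPS1i Input and 3 in DMSO Input, so that scaling is coarse.

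These name-level calls mostly stood for single regions. Of the 448 measured J2 names, 258 had at least 50% of their reads in 1 region, and of the 94 called names 73 did. Among 44 J2 names spread over at least 50 regions, with no region above 20% of the reads, 1 was called higher, 0 were called lower and the median log2 ratio was -0.01. That name was (GAAA)n, with 58 reads in MPS1i J2 and 41 in DMSO J2 over 66 regions (1.05 [0.45, 1.66]), and in Input 21 reads in MPS1i cells and 32 in DMSO cells. The lowest of the 44 was (TGGA)n at -0.83. Among 38 such Input names, 1 was called higher, (ATA)n with 148 reads in MPS1i Input and 79 in DMSO Input (1.30 [0.90, 1.72]), and 0 were called lower. These names were singled out after their values were seen.

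Among the most read names, GA-rich stood apart at 0.56 in J2, and (A)n at -0.42 in Input. (T)n had 8304 reads in MPS1i J2 and 11992 in DMSO J2 (0.02), (AC)n had 7207 and 10320 (0.03), and (TA)n had 6177 and 8374 (0.11). The dinucleotide (GT)n was the lowest of the most read names in J2, with 3537 reads in MPS1i J2 and 6789 in DMSO J2 (-0.39), against 0.05 in Input. Ranked by the bound of the interval nearest to no change, the names called highest in J2 were (ATATCATAT)n with 91 reads in MPS1i J2 and 7 in DMSO J2 (4.25), (AGAGAA)n with 68 and 12 (3.05), (TTATGTAA)n with 92 and 29 (2.21), (ACA)n with 95 and 31 (2.16) and (ACATTAT)n with 93 and 45 (1.60). In 4 of these 5 at least 90% of the J2 reads lay in 1 region; (ACA)n, with 32.5% in its largest, was the exception. The names called lowest by the same ranking were (TTCAC)n with 29 reads in MPS1i J2 and 267 in DMSO J2 (-2.65), (TTGG)n with 32 and 257 (-2.46), (GGCCA)n with 25 and 193 (-2.40), (CTCCC)n with 5 and 59 (-3.01) and (GCCCTG)n with 24 and 176 (-2.33).

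In Input the highest names by this ranking were (TTAAGAA)n with 57 reads in MPS1i cells and 12 in DMSO cells (2.65), (TGCTGC)n with 57 and 16 (2.23), (TTATGTAA)n with 43 and 11 (2.36), (GGGAT)n with 441 and 211 (1.46) and (AAGATGA)n with 312 and 149 (1.46). The lowest were (ATTAAT)n with 17 reads in MPS1i cells and 128 in DMSO cells (-2.52), (ATTAT)n with 16 and 97 (-2.20), (CCCCT)n with 12 and 76 (-2.27), (TTTATA)n with 125 and 471 (-1.52) and (TATGTA)n with 7 and 46 (-2.32). (TTATGTAA)n was the name that ranked among the highest 5 in both tables.

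Region by region, 1191 J2 members reached 50 reads. Of these 129 were called higher in MPS1i cells (10.8%, against 12.5% of all J2 regions measured) and 290 lower (24.3%, against 27.2%). The median log2 ratio was -0.13 for members and -0.21 for all J2 regions. In Input, 91 of 611 members were called higher (14.9%, against 16.3%) and 97 lower (15.9%, against 14.4%). The shares of members called were thus near those of all regions in both tables. After thinning to equal depth the J2 split was 107 higher and 121 lower of 681, so the excess of lower calls in J2 was smaller at equal depth. In Input the split was 52 higher and 170 lower under TMM scaling and 117 higher and 77 lower under upper-quartile scaling. Members sense to a gene had 75 calls higher and 268 lower of 819 in J2. Those antisense to a gene had 26 higher and 11 lower of 186, and those outside genes 28 and 11 of 186. Plus-strand J2 regions without a repeat leaned the same way in each place. They had 558 higher and 1879 lower of 5711 for sense, 70 and 29 of 392 for antisense and 185 and 97 of 1010 for outside.

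Of the 5 regions that rose most in J2 by that same bound, most lay at or downstream of interferon-induced antiviral genes. An A-rich region at chr10:89425545-89426575, 4544 bases past the annotated end of IFIT5 and on its strand, had 266 reads in MPS1i J2 and 3 in DMSO J2 (7.02 [5.46, 9.31]). IFIT5 belongs to a family of interferon-induced proteins that bind viral RNA. In Input that place had 107 reads in MPS1i cells and 1 in DMSO cells (7.14 [4.63, 12.46]). A neighbouring region at chr10:89425102-89425528 had 72 reads in MPS1i J2 and 0 in DMSO J2, at least 35.1-fold higher against a floor of 3 reads per library. Farther on, an (AAT)n region at chr10:89432487-89432982, opposite the last exon of SLC16A12, a creatine transporter gene, had 59 reads in MPS1i J2 and 0 in DMSO J2. That is 28.8-fold higher against the same floor, with a lower log2 bound of 4.50. These 3 lie along 1 stretch of the genome and may not be independent.

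A (CCA)n region at chr2:6898297-6898561, annotated as the transcript end of RSAD2, had 92 reads in MPS1i J2 and 0 in DMSO J2. That is 44.8-fold higher against the floor of 3 reads, with a lower log2 bound of 5.16. RSAD2 encodes viperin, an interferon-induced antiviral enzyme. In Input the overlapping region had 50 reads in MPS1i cells and 1 in DMSO cells. A (CAC)n region at chr4:67714577-67715122, in the intron of the non-coding RNA UBA6-AS1, had 84 reads in MPS1i J2 and 5 in DMSO J2 (4.62 [3.34, 6.28]), and 50 reads in MPS1i Input and 3 in DMSO Input. Each of these J2 regions was also higher in the Input of MPS1i cells.

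**Figure D3:**
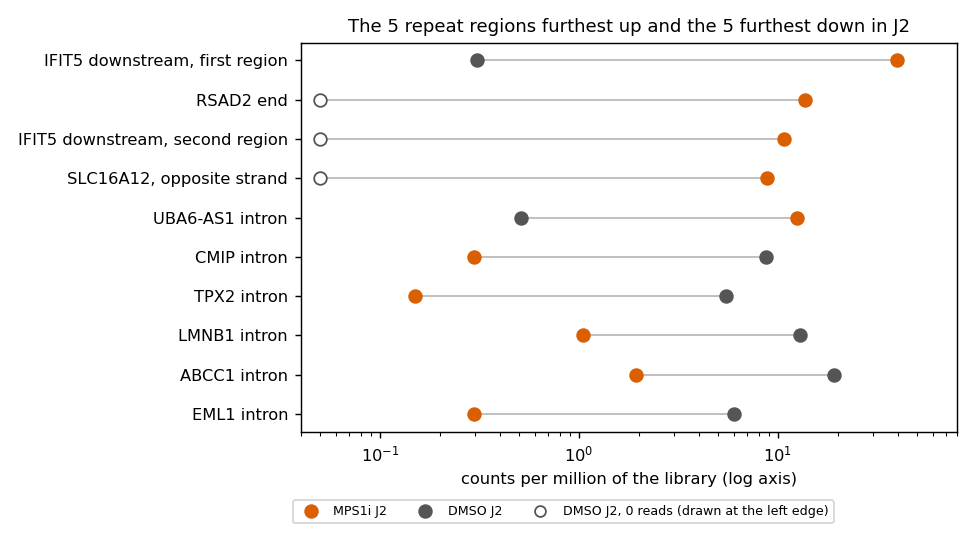
CPM in the MPS1i J2 and DMSO J2 libraries (log axis) for the 5 repeat regions called higher and the 5 called lower whose interval lay farthest from no change. Open points at the left edge stand for 0 reads. The A-rich region downstream of IFIT5 has 39.7 CPM in MPS1i J2 and 0.306 in DMSO J2.

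The 5 regions that fell most in J2 by that bound were intronic and sense to their gene. A (TG)n region in intron 10 of CMIP, a signalling adaptor, had 2 reads in MPS1i J2 and 85 in DMSO J2 (-4.86 [-7.93, -2.96]). A (TTG)n region in intron 4 of TPX2, a spindle assembly factor, had 1 read in MPS1i J2 and 54 in DMSO J2 (-5.21 [-10.54, -2.67]). An A-rich region in LMNB1, which encodes lamin B1, had 7 reads in MPS1i J2 and 127 in DMSO J2 (-3.63 [-4.98, -2.55]). A (TGTA)n region in intron 7 of ABCC1, a drug efflux pump, had 13 reads in MPS1i J2 and 188 in DMSO J2 (-3.31), and a (CA)n region in intron 16 of EML1, a microtubule-binding protein, had 2 and 59 (-4.33). In Input the CMIP, TPX2, ABCC1 and EML1 places were lower too, with 0 reads in MPS1i cells and 25 in DMSO cells, 0 and 10, 5 and 35, and 0 and 8. LMNB1 was the exception, with 19 reads in MPS1i Input and 18 in DMSO Input.

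In Input the largest rises by that bound after the IFIT5 place were an (AG)n region near MYO16-AS1 with 78 reads in MPS1i cells and 3 in DMSO cells (5.10), the UBA6-AS1 region, an (AT)n region in intron 1 of SDCBP, which encodes syntenin, with 145 and 13 (3.88), and a region in intron 1 of PMAIP1, the p53 target that encodes NOXA, with 63 and 5 (4.05). The largest falls were a (CA)n region in CPS1, the first enzyme of the urea cycle, with 4 reads in MPS1i cells and 114 in DMSO cells (-4.44), a second CPS1 intron region of unit (TTTATA)n with 26 and 247 (-2.85), a region opposite RBFOX2 with 2 and 54 (-4.36), a (CATT)n region in ABCC2 with 9 and 108 (-3.19) and a region in DAPK1 with 20 and 179 (-2.76). In J2 the (TTTATA)n place in CPS1 had 137 reads in MPS1i cells and 940 in DMSO cells.

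Of 170 members matched between the tables and measured in both, 7 were called higher in both, 9 lower in both and 0 in opposite directions. Another 9 were higher and 8 lower in J2 only, and 13 higher and 10 lower in Input only. Whether those differ between the tables was not tested. The same counts over all matched regions are not given here, so these are not read as a trait of the members.

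The most read members are given here, those of J2 first. The AKR1C1 intron 7 region at chr10:4972749-4975130 names (TA)n beside a pair of AT-rich units and had 13009 reads in MPS1i J2 and 10165 in DMSO J2 (0.90 [0.87, 0.94]). AKR1C1 encodes an aldo-keto reductase of steroid and carbonyl metabolism. The second was the pre-ribosomal RNA gene RNA45SN1, at chr21:8433208-8435731, which names a G-rich stretch and 2 GC-only units. It had 1804 reads in MPS1i J2 and 9975 in DMSO J2 (-1.92 [-1.99, -1.85]), and 891 in MPS1i Input and 2161 in DMSO Input (-0.88 [-0.99, -0.77]). The ribosomal RNA genes are near-identical copies, so how reads were shared among them is uncertain. In Input the most read members were the LARP4 region (2036 reads in MPS1i cells, 3824 in DMSO cells), a mitochondrial region (2246 and 3417) and a (TAAGG)n region in intron 2 of RPS18, a ribosomal protein gene (2744 and 2678).

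Set against total RNA, members as a whole made up more of the J2 library than of the Input library. The log2 ratio of J2 over Input was 0.34 [0.33, 0.35] in MPS1i cells and 0.35 [0.34, 0.36] in DMSO cells, and the change of that ratio with treatment was -0.01 [-0.03, 0.00]. The J2 and Input tables hold different regions, and the J2 members covered 1.42 times as many bases. Per covered megabase the ratio was -0.16 in MPS1i cells and -0.15 in DMSO cells. Over 3580 members matched between the tables at 90% reciprocal overlap it was -0.23 in MPS1i cells and -0.17 in DMSO cells. Mitochondrial reads took 0.836% of MPS1i J2 and 0.608% of DMSO J2, against 20.2% of MPS1i Input and 24.3% of DMSO Input. With reads outside the mitochondrial genome as the scale, the ratio of all members was 0.02 in MPS1i cells and -0.04 in DMSO cells. That scale lowers every J2 over Input ratio here by 0.31 in MPS1i cells and 0.39 in DMSO cells, and leaves the order of classes as it is. The sign for the whole class thus depended on the measure. All regions of the tables, set the same way, stood at -0.35 per megabase in both MPS1i and DMSO cells, and at -0.72 in MPS1i cells and -0.89 in DMSO cells in matched regions. With every region kept, members thus lay above all regions by sums, per megabase and in summed matched regions. By sums, all regions show no difference by construction, since they are the library totals. A single Input region held 16.1% of all MPS1i Input reads and 19.0% of all DMSO Input reads. Without the most read region of each table, all regions stood at 0.24 in MPS1i cells and 0.29 in DMSO cells by sums. Members without theirs stood at 0.26 and 0.33. The single Input region is among the matched regions too. Matched plus-strand sense regions without a repeat held 1366014 DMSO Input reads, and all such regions without it held 1194263. The values per megabase and in matched regions were not recomputed without it. Whether the order of members and all regions on those measures rests on that region was not tested. The part of mitochondrial reads in the values of all regions was not tested. Measured region by region, the median of matched members was 0.05 in MPS1i cells and 0.01 in DMSO cells, below the 0.28 and 0.25 of all matched regions.

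Classes of base composition are compared here for regions whose units share 1 GC class. Regions that name units of several GC classes stood at 1.41 in MPS1i cells and 0.99 in DMSO cells by sums, and at 0.47 and 0.52 without their most read regions. Among single classes, units without G or C were highest by sums, per megabase and in summed matched regions, at 0.90 in MPS1i cells and 0.86 [0.84, 0.88] in DMSO cells by sums, 0.11 and 0.07 per megabase, and 0.19 and 0.12 in matched regions. Units made only of G and C stood at -0.68 in MPS1i cells and -0.72 [-0.78, -0.66] in DMSO cells by sums, -0.48 and -0.53 per megabase, and -0.93 and -1.04 in matched regions. They were the lowest class by sums and in matched regions, but not per megabase, where units between 0 and 50% GC stood at -0.58 in MPS1i cells and -0.67 in DMSO cells. Of the regions with pure GC units 42.8% were annotated as promoter in J2 and 43.2% in Input, against 1.31% and 1.52% of those with units without G or C. The part of promoter location in the difference was not tested. Among matched regions measured one by one in DMSO cells, the median was 0.35 over 40 regions without G or C, 0.46 over 50 regions of units between 0 and 50% GC and -1.04 over 14 pure GC regions, of which 0 were called higher and 8 lower. In MPS1i cells the medians were 0.59 over 34, 0.59 over 36 and -0.85 over 14 regions of the same classes. One by one, the class without G or C was thus not the highest in DMSO cells. In MPS1i cells it was level with units between 0 and 50% GC.

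**Figure D4:**
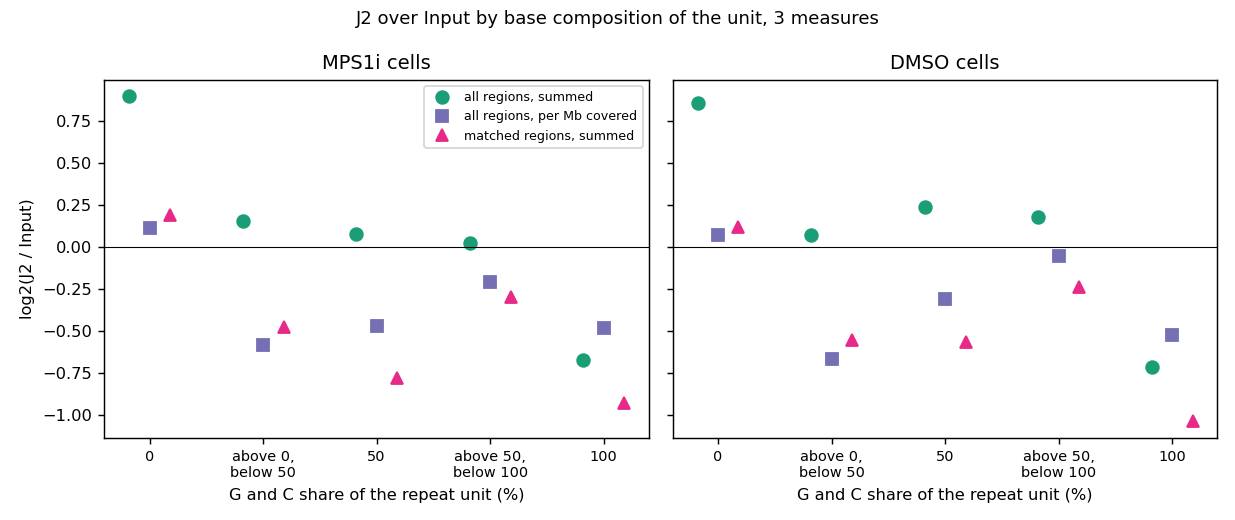
Log2 ratio of J2 over Input by GC share of the repeat unit in MPS1i cells (left) and DMSO cells (right). Circles are summed CPM of all members, squares the same per megabase covered and triangles summed CPM of regions matched between the tables. Regions naming units of several GC classes are not drawn. Of the classes drawn, that without G or C lies highest on each measure in both panels, and by sums the pure GC class is at -0.68 in MPS1i cells and -0.72 in DMSO cells.

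By unit, AT repeats, which are self-complementary, had a J2 over Input ratio of 1.28 in MPS1i cells and 1.25 in DMSO cells by sums, 0.43 and 0.40 per megabase, and 0.55 and 0.19 in matched regions. All 6 values were above 0 relative to the library totals; the non-mitochondrial scale would put the DMSO value in matched regions below 0. A repeats, which cannot fold on themselves, were as high by sums, at 1.35 in MPS1i cells and 1.12 in DMSO cells, but stood at 0.01 and -0.31 in matched regions. T repeats stood at 0.19 and 0.22 by sums. The (GC)n unit, self-complementary like AT, stood at -1.03 in MPS1i cells and -1.24 in DMSO cells, nearly all of it the ACTG1 region. Purine-only units stood at 0.32 in MPS1i cells and 0.50 in DMSO cells, and pyrimidine-only units at 0.00 and -0.14; in matched regions purine-only units stood at -0.42 and -0.30, and pyrimidine-only units at -0.45 and -0.49, a smaller gap in the same order. By sums CCG stood at -1.45 in MPS1i cells and -1.28 in DMSO cells, and in matched regions at -1.79 and -2.30. TG stood at 0.54 and 0.69 by sums and 0.32 and 0.18 in matched regions. For CAG and CA the measures differed. CAG stood at -1.18 and -1.07 by sums, but 53.1% of its Input reads lay in 1 region at NAA20, and in matched regions it stood at -0.10 and 0.08. CA stood at 0.17 and 0.26 by sums and -0.48 and -0.18 in matched regions.

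Of the single names, 113 of 346 were called higher in J2 than in Input in MPS1i cells (32.7%, against 20.1% of all repeat names) and 161 of 446 in DMSO cells (36.1%, against 24.7%). In MPS1i cells 52 were called lower (15.0%, against 8.07%) and in DMSO cells 70 (15.7%, against 8.59%). The shares called were thus above those of all repeat names in both directions, with no test of that difference. Among the highest in both cells were again single intronic regions. A (TTGA)n region in intron 4 of SEH1L, a nuclear pore protein, at chr18:12963371-12963752, had 2116 reads in MPS1i J2 and 2742 in DMSO J2, and the overlapping Input region 21 in MPS1i cells and 13 in DMSO cells. A (TGCCTG)n region in PPFIA1, a liprin, at chr11:70332094-70332459, had 2037 reads in MPS1i J2 and 2112 in DMSO J2, and no Input member overlapped it; the name had 0 reads in MPS1i Input and 17 in DMSO Input. (TTCAC)n with 267 reads in DMSO J2 and (GAGGC)n with 246 had 0 reads in Input, since the Input table lists no region with that name alone. The overlapping Input region at YY1 had 50 reads in MPS1i cells and 63 in DMSO cells, so the (GAGGC)n value shows how the tables differ in regions. The lowest names included (CACAGC)n, with 0 reads in MPS1i J2 and 1 in DMSO J2, against 378 in MPS1i Input and 294 in DMSO Input, (CATTTA)n with 1 and 2 against 159 and 257, and (TTTT)n with 20 and 46 against 1201 and 1394, 99.6% of it in an intron 7 region of AKR1C3.

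Region by region, 201 matched members could be measured in MPS1i cells, of which 38 were called higher in J2 than in Input, against a background of 24% of all matched regions, and 41 lower, against 17%. In DMSO cells 48 of 271 were called higher, against 23.6% of all matched regions, and 70 lower, against 17.4%. Of the 182 measured in both cells, 21 were called higher in both and 28 lower in both, with no matching count over all matched regions given here.

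The change of J2 over Input with treatment was called at 2-fold or more for 74 of 358 names, 35 higher (9.78%, against 5.86% of all repeat names) and 39 lower (10.9%, against 7.1%). The median change was -0.05, against -0.06 for all repeat names. Ranked by the interval bound nearest to no change, the highest were (TGATGG)n, with 40 reads in MPS1i J2 and 18 in DMSO J2 against 1 and 20 in Input (5.05), (ACATTAT)n (4.15), (AACAGA)n (3.58), (ATTAAT)n (2.92) and (TTCTATT)n (5.69), each with 17 or fewer Input reads in MPS1i cells. The lowest by that bound were (GGCCA)n (-2.95), (TTGG)n (-2.62), (CAGAGCA)n (-3.47), (TGTA)n (-1.80) and (AATATA)n (-2.83). (TGTA)n had 104 reads in MPS1i J2 and 473 in DMSO J2, against 760 and 890 in Input, so it was called lower in J2 while its Input ratio stood at 0.17. The values rest on different regions: 88.2% of its Input reads lay in 1 region, and its largest J2 region is the one in ABCC1, whose Input counterpart was lower too.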

How the data were processed

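The authors deposited 2 tables, 1 for J2 and 1 for Input, of read counts as whole numbers for regions on each strand, with no normalization. Per the submitters' processing notes, the build was GRCh38 (hg38) and the tools included STAR, featureCounts, HOMER and the trimmers cutadapt, Trimmomatic and Trim Galore. Tool roles, versions and the assignment of repeats and regions were not given in the sources used here. The labels' protocols name a stranded total RNA kit. Library totals ran from 4844956 to 9793355 counts.

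Members and lists were chosen with earlier results of these data known. A member had only names of class Simple_repeat or Low_complexity in its Repeat entry. Of 7529 names written as a repeated unit, 3321 had a class in the detailed annotation and 4208 were classed by their form; (GAATG)n and (CATTC)n, mostly classed as satellite, were left out. Regions naming units of different length or GC share form groups of their own. Coordinates are given as the files give them, and starts may be 1 base low. Place is any overlap with a GENCODE 29 gene.

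Counts were divided by the library total (CPM) and the MPS1i over DMSO ratio was given an exact Clopper-Pearson 95% interval (Python 3.11.15, scipy 1.17.1). A call needed a 2-fold ratio, 50 counts in the pair and an interval without 1. The change of J2 over Input used counts plus 0.5, a delta-method interval and at least 20 Input counts. With 1 library per group no test was run. The calls were checked on simulated counts. Named were all groups and fixed units, the 12 most read names, the 5 names and regions called farthest each way, and the most read regions. Alternatives used edgeR 4.0.16 (TMM) and DESeq2 1.42.0 (median of ratios) for scaling only.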

Additional observations from a re-analysis of the deposited data

Results flagged for a closer look

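(TGAG)n was called in opposite directions in the 2 tables. It had 22 reads in MPS1i J2 and 79 in DMSO J2, a log2 ratio of -1.3 [-2.05, -0.60], and 34 reads in MPS1i Input and 22 in DMSO Input, a log2 ratio of 1.03 [0.21, 1.87]. It stands here because the effect of the inhibitor ran one way in J2 and the other way in Input. The difference was not tested, since each group has 1 library. The Input call depends on the scale: TMM shifts every Input ratio by -0.45 and median of ratios by -0.40, and under either the Input ratio would be under 2-fold. The median-of-ratios factor was 1 in both Input libraries, so that scale makes no correction for depth. The J2 reads lay in 15 regions, with 34.7% in the largest.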

How the results depend on the processing

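No paired analysis was possible because each group has 1 library, and leaving one out would leave no comparison. Sums below are log2 ratios. Alternatives chosen after seeing the data are the centre-named members and the removal of the pre-ribosomal regions; no minus-strand alternative gave a value, since no member lies there, and plus-strand regions only are the members themselves. TMM, upper-quartile and median-of-ratios scaling hold within a table and were not applied to J2 over Input. In both tables the upper quartiles were 2 reads for MPS1i and 3 for DMSO. The median-of-ratios factors were 1 in both Input libraries, so that scaling left Input counts uncorrected for depth. Where a value moved, the cause was not tested.

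The J2 sum, MPS1i over DMSO, was 0.07 with members named by the centre annotation on either strand, 0.02 under TMM, 0.04 under upper quartile, -0.04 under median of ratios, 0.02 with at most 1 read per region, -0.05 without the most read member, -0.04 without the 10 most read, 0.28 in regions of 200 bp or less, -0.04 in matched regions, -0.17 in introns, 0.38 between genes, -0.05 in centre-named members and 0.04 without the pre-ribosomal regions. The Input sum was 0.14, -0.43, 0.20, -0.38, 0.18, 0.03, 0.04 and 0.25 under the first 8 of these, -0.06 on the non-mitochondrial scale, -0.14 in introns, 0.36 between genes and 0.11 in centre-named members.

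J2 over Input was 0.19 in MPS1i cells and 0.26 in DMSO cells by the centre annotation, 0.02 and -0.04 on the non-mitochondrial scale, -0.11 and 0.05 with at most 1 read per region, 0.26 and 0.33 without the most read member, -0.22 and -0.25 in regions of 200 bp or less, -0.23 and -0.17 in matched regions, 0.39 and 0.43 in introns, 0.50 and 0.48 between genes, and -0.03 and 0.12 in centre-named members. It was 0.41 in DMSO cells without the 10 most read and 0.32 without the pre-ribosomal regions. The change of J2 over Input was -0.07 by the centre annotation, 0.07 on the non-mitochondrial scale, 0.45 under TMM, -0.16 under upper quartile, 0.34 under median of ratios, -0.16 with at most 1 read per region, -0.08 without the most read and without the 10 most read, 0.03 in regions of 200 bp or less, -0.06 in matched regions, -0.04 in introns, 0.03 between genes, -0.15 in centre-named members and 0.02 without the pre-ribosomal regions.

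Called names in J2, 94 in all, numbered 39 by the centre annotation, 55 after thinning, 0 with at most 1 read per region, 14 in regions of 200 bp or less, 201, 19 and 348 with a minimum of 20, 200 and 1 reads, 167 at 1.5-fold and 13 in centre-named members. Called names in Input, 46 in all, numbered 26, 0, 20, 161, 9, 424, 98 and 3 under the same settings without thinning. Called J2 regions, 419 in all, numbered 115 by the centre annotation, 228 after thinning, 12 in regions of 200 bp or less, 1111, 78 and 2513 with a minimum of 20, 200 and 1 reads, and 23 in centre-named members. Called Input regions, 188 in all, numbered 43, 10, 595, 25, 2701 and 7 under the same settings without thinning, and 292 at 1.5-fold. The J2 over Input ratio of A repeats in DMSO cells, 1.12 by sums, was -0.31 in matched regions.

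Depth limits single names and regions most: with 1 library per group a counting interval leaves out biological and preparation variance, and most members have too few reads to be measured.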

Other observations

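Minus-strand regions whose centre is a simple repeat or low complexity stretch, which are not members, had 25230 reads in MPS1i J2 and 33228 in DMSO J2, a log2 ratio of 0.15 [0.13, 0.17]. Their Input counts were 17326 in MPS1i cells and 19979 in DMSO cells, a log2 ratio of 0.19 [0.16, 0.22]. The J2 value was 0.02 without the most read region and the Input value 0.13. The plus-strand regions of the same kind stood at -0.02 in J2 and 0.07 in Input. The (CATTC)n rows left out as satellite had 24 reads in MPS1i Input and 4 in DMSO Input, a log2 ratio of 2.98 [1.44, 4.97], and the (GAATG)n rows 13 in MPS1i Input and 3 in DMSO Input (2.51 [0.65, 4.96]). In J2 the (CATTC)n rows had 2 reads in MPS1i cells and 4 in DMSO cells, too few to compare.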
